A study of Homo sapiens with 6 samples.

Results

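The zinc finger genes at 19q13.1 are 31 protein-coding ZNF genes in the cluster on the long arm of human chromosome 19, and they were described here in OVCAR8 cells treated with the hormone relaxin-2. The members were taken by symbol from a given list of ZNF genes of that cluster, which leaves out ZNF875, a gene lying between them. They make up 31 of the 58037 gene IDs counted. They lie between positions 34677639 and 37817300 on GRCh38, a span of 3.14 megabases, with 14 on the plus strand and 17 on the minus strand. The cluster was singled out with results of the same comparison known, ZNF781 being its member with the smallest p, so its differences between relaxin-2 and untreated cells are given as a description and support nothing.

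OVCAR8 is an established human ovarian carcinoma line. Relaxin-2 (RLN2) is a secreted peptide hormone of the insulin and relaxin family. The treated group held 3 libraries, numbered 1 to 3, from cells given 50 ng/mL of recombinant human relaxin-2 for 8 hours, and the untreated group held 3 libraries, numbered 2 to 4, from cells given no hormone; all cells of both groups had first gone without serum for 16 hours. The labels call the libraries triplicates but do not state that each came from its own culture, and errors and p-values therefore measure only the spread among these libraries, which may be technical. In bulk RNA, fewer cells that express a gene and less of its RNA per cell cannot be told apart.

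The relaxin-2 libraries held 11939148 to 21926212 reads assigned to genes and the untreated libraries 17175308 to 22426768. Of 16740 genes tested with edgeR, 0 passed an adjusted p of 0.05, and 1811 had an unadjusted p under 0.05; DESeq2, run on 32407 genes, called 0, with 1744 at an unadjusted p under 0.05. The epithelial keratins KRT8 and KRT18 averaged 974 and 1308 on the counts-per-million (CPM) scale in relaxin-2 cells and 705 and 1165 CPM in untreated cells, and PAX8, a marker of the Müllerian lineage, averaged 65.7 CPM in relaxin-2 cells and 53.2 CPM in untreated cells. KRT7 averaged 259 CPM in relaxin-2 cells and 198 CPM in untreated cells, and the epithelial marker EPCAM averaged 30.12 and 31.25 CPM. WT1, also listed as a marker of ovarian carcinoma, averaged only 3.35 CPM in relaxin-2 cells and 2.98 CPM in untreated cells. The keratin KRT19 was nearly absent, with 4 reads over the 6 libraries. Of the markers of other cell types, the leukocyte gene PTPRC averaged 0.015 CPM in relaxin-2 cells and 0.019 CPM in untreated cells, and the endothelial gene PECAM1 averaged 0.758 CPM in relaxin-2 cells and 0.610 CPM in untreated cells. Of the fibroblast genes, DCN had 0 reads in both groups and LUM averaged 1.32 CPM in relaxin-2 cells and 1.36 CPM in untreated cells.

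C2H2 zinc finger proteins read DNA through tandem fingers, each of which holds a zinc ion between a pair of cysteines and a pair of histidines. Many also carry a KRAB domain, which recruits the corepressor TRIM28 and through it the histone methyltransferase SETDB1, and are known for silencing transposable elements. The human genes stand in clusters, most of them on chromosome 19, that grew by tandem duplication, so neighbours share much of their sequence.

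The promoters of these genes were read first, because they hold a feature that the choice of members did not use. RefSeq promoter windows (GRCh38.p14, 250 bases before to 50 after each start) were found for 28 of the 31 members, in 44 windows, and not for ZNF30, ZNF571 and ZNF781. Of all runs of 12 letters on either strand, ACTACATTTCCC was held by the windows of the largest number of members, 11 of the 28. Windows with these 12 letters made up 25% of member windows, 3.71% of windows of other ZNF genes and 0.384% of all windows. With any letters at positions 7 and 8, the pattern ACTACANNTCCC, also searched on both strands, was present in 15 of 44 member windows (34.1%), in 45 of 512 windows of other ZNF genes (8.79%) and in 616 of all 35116 windows (1.75%). The letters were picked from the member windows themselves, and duplicated neighbours are not independent, so these shares carry no test. The pattern has the letters of only a part of the known SBS element, to which the factor ZNF143 binds. The rest of that element was not searched for, and a match in a window is a description and not a site.

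The places where the pattern was found are shown for 9 members, because they show how alike the letters around it are along the cluster. The capitals mark the 12 letters of the pattern, and each sequence is written 5′ to 3′ on the strand that reads it.
ZNF146 at chr19:36214963-36214988, minus strand: ttggACTACATTTCCCttgaggcttt
ZNF565 at chr19:36214706-36214731, minus strand: ctggACTACAATTCCCagagcccaca
ZNF260 at chr19:36528378-36528403, plus strand: gtagACTACATTTCCCagaaggttca
ZNF790 and ZNF345 at chr19:36850786-36850811, plus strand: ctggACTACACTTCCCagaagcctct
ZNF829 at chr19:36916081-36916106, minus strand: ctggACTACATTTCCCagagggcctg
ZNF527 at chr19:37370997-37371022, minus strand: ttgaACTACATCTCCCagagaacccc
ZNF569 at chr19:37467446-37467471, plus strand: ccgaACTACATTTCCCagaggccttc
ZNF573 at chr19:37779597-37779622, minus strand: ttaaACTACATTTCCCagagggcaac

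The pattern stood at 14 places in the windows of 14 member genes, with its centre between 235 and 3 bases before the start of transcription. ZNF345 and ZNF790, which are transcribed away from each other, share a place, and so do ZNF829 and ZNF568. ZNF420 had a tandem pair in its window, shown here because the letters around the copies are nearly the same.
ZNF420, at chr19:37078336-37078361, plus strand: ctggACTACATTTCCCagaggcacgg
ZNF420, at chr19:37078373-37078398, plus strand: ctggACTACATTTCCCagaggcaccg

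The 250 bases before the start of ZNF850, the member with the most zinc fingers, are shown as an example of a longer stretch of a window, with the 12 letters of the pattern in capitals.
ZNF850 at chr19:36772808-36773057, minus strand: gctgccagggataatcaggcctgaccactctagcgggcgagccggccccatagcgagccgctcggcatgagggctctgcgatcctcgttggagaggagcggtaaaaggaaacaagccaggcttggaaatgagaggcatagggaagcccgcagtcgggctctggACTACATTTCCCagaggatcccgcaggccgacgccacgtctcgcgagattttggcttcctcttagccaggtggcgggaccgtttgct

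The 10-letter run held by the largest number of members, ATTTCCCAGA, overlaps the end of the 12-letter run and was in 13 of 44 member windows (29.5%), in 2.73% of windows of other ZNF genes and in 0.310% of all windows. Member windows were rich in G and C, with a median GC content of 61.5% against 58.7% over all windows, and in CG pairs, with a median of 22.5 against 14. None of the other promoter letters searched was more frequent in member windows than in both windows of other ZNF genes and all windows. CCAAT was in 22.7% of member windows, 46.3% of windows of other ZNF genes and 34.6% of all windows. GGGCGG, the core letters bound by Sp1, was in 45.5% of member windows, 61.7% of windows of other ZNF genes and 44.95% of all windows. CCGGAAG, with the letters of ETS sites, was in 25% of member windows, 35.2% of windows of other ZNF genes and 10.3% of all windows. TATAAA was in 1 of 44 member windows (2.27%), 4.30% of windows of other ZNF genes and 11.5% of all windows. The palindromic cyclic AMP response element TGACGTCA was in 0 of 44 member windows, 3.71% of windows of other ZNF genes and 1.85% of all windows.

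**Figure D1:**
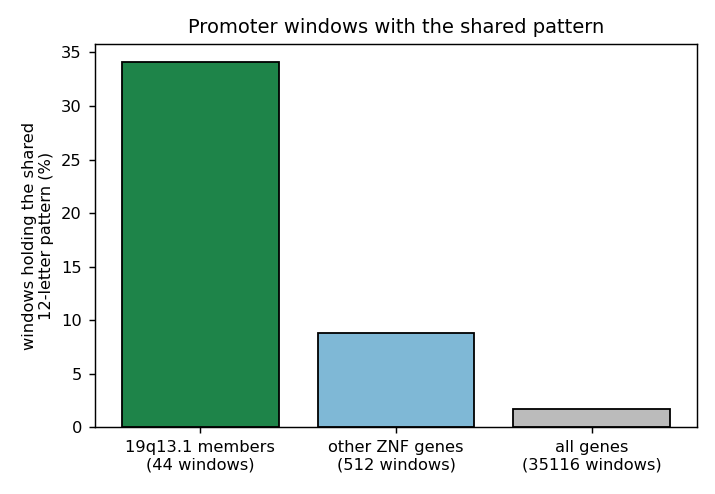
Share of RefSeq promoter windows that hold the shared 12-letter pattern on either strand (y axis, percent), for windows of the 19q13.1 members, of other ZNF genes and of all genes. The bars stand at 34.1%, 8.79% and 1.75%.

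All 31 members were expressed in OVCAR8 cells: none was silent (a mean under 0.1 CPM over the 6 libraries) and none fell between 0.1 and 1 CPM. All 31 also passed the filter on low counts. The median member averaged 19.4 CPM, 22 members were above 10 CPM, and the lowest, ZNF540, averaged 2.51 CPM. CPM values, scaled with TMM factors, do not correct for gene length, so levels of different members are compared below as CPM per kilobase of annotated exon. On that scale 27 members were at 1 or above, and ZNF345, ZNF599, ZNF571 and ZNF540 lay between 0.582 and 0.906 CPM per kilobase.

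ZNF146 was the most abundant member, at 57.6 CPM per kilobase, and made up 25.9% of the members' summed CPM. It encodes a short protein made almost only of fingers, with no KRAB domain; the longest reading frame in its annotated transcripts had 292 residues, the fewest of the cluster. ZNF146 measured 239, 213 and 213 CPM in the relaxin-2 libraries and 291, 254 and 223 CPM in the untreated ones. The untreated libraries 2 and 3 were the highest, and untreated library 4 fell among the relaxin-2 values, so the groups overlapped. The log2 fold change was -0.21 ± 0.10 (SE).

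The next levels per kilobase were those of ZNF566 at 13.14, ZNF302 at 10.9, ZNF260 at 9.54, ZNF607 at 9.50 and ZNF781 at 9.37 CPM per kilobase. ZNF260, like ZNF146, is built of fingers without a KRAB domain. ZNF566 measured 88.9, 79.9 and 76.9 CPM with relaxin-2 and 99.6, 85.8 and 80.1 CPM untreated. ZNF260 measured 57.5, 51.9 and 53.5 CPM with relaxin-2 and 69.1, 55.2 and 53.4 CPM untreated. ZNF302 measured 52.4, 51.3 and 54.1 CPM with relaxin-2 and 64.5, 53.8 and 54.0 CPM untreated. In these 3 genes untreated library 2 was the highest of the 6, and the remaining libraries of both groups overlapped. ZNF607 measured 45.2, 45.6 and 40.9 CPM with relaxin-2 and 49.6, 47.0 and 41.9 CPM untreated, again with overlapping groups. The log2 fold changes of these 4 genes ran from -0.13 ± 0.09 (SE) for ZNF302 to -0.07 ± 0.10 (SE) for ZNF607.

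**Figure D2:**
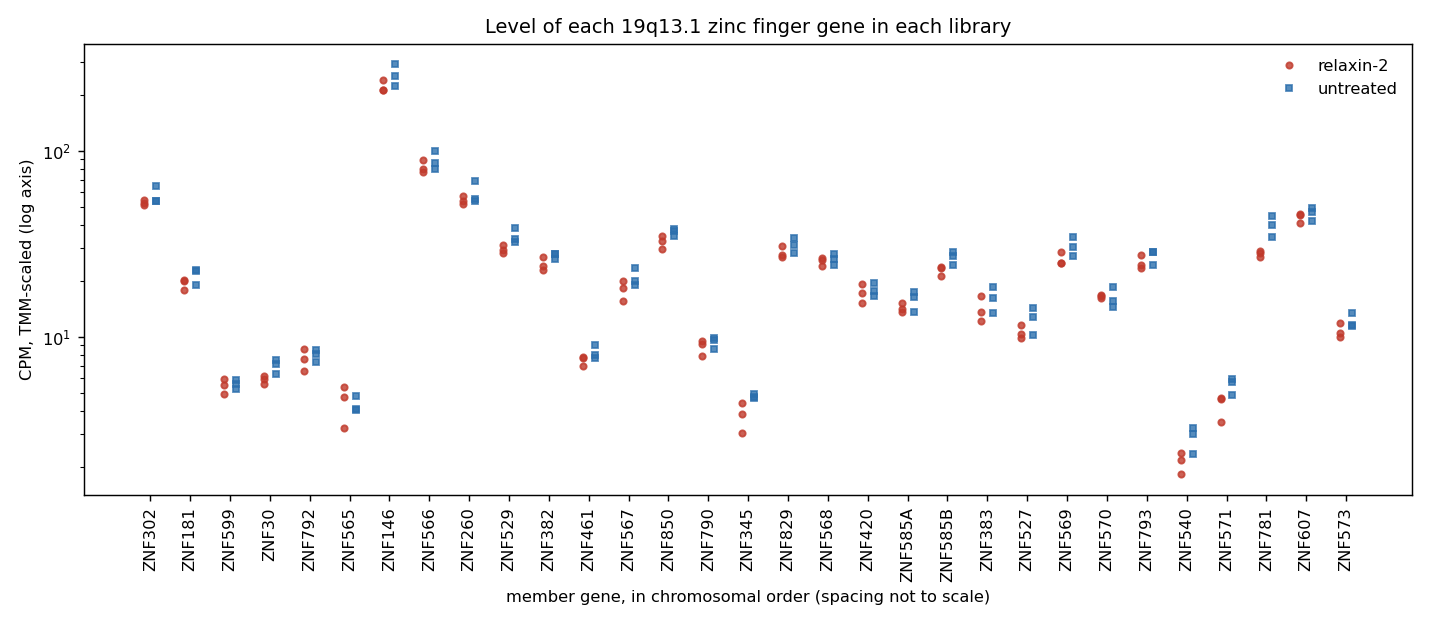
Level of each of the 31 members in each library, in TMM-scaled CPM on a log axis, with relaxin-2 and untreated libraries in separate colours. ZNF146 stands at the top at 213 to 291 CPM, ZNF540 is lowest at 1.83 to 3.24 CPM, and no member is at 0 in any library.

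The members differ widely in the number of fingers, counted as C2H2 motifs in the longest reading frame of their GENCODE transcripts. The median was 12 motifs, with 3 in ZNF781 and 29 in ZNF850, whose reading frame of 1090 residues was the longest. The neighbours ZNF585A and ZNF585B had 21 motifs each. Of the 75-base windows in their transcripts, 14.6% of those of ZNF585B also occur in ZNF585A and 10.5% of those of ZNF585A occur in ZNF585B. Reads that fit both genes equally well are not counted, so the levels of this pair, 3.29 CPM per kilobase for ZNF585B and 1.40 CPM per kilobase for ZNF585A, are uncertain. For 21 of the 31 members no 75-base window occurred in another gene.

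Several members are transcribed away from each other from a shared region. In 5 pairs the outermost annotated starts lie within 2000 bases, and in each pair the minus-strand gene had the higher level per kilobase of annotated exon. That length counts all annotated exons of a gene, and the order can change with another length. ZNF568 had more annotated exon bases than its partner ZNF829, 9437 against 7742, but shorter transcripts, with means of 2068 and 3320 bases. ZNF529 stood at 3.94 and its partner ZNF382 at 2.30 CPM per kilobase, and ZNF790 stood at 2.37 and ZNF345 at 0.906 CPM per kilobase. ZNF568, whose mouse counterpart Zfp568 represses a placental transcript of Igf2, stood at 2.74 CPM per kilobase beside ZNF829 at 3.85. ZNF585B stood at 3.29 beside ZNF383 at 1.79, and ZNF569 at 5.66 beside ZNF570 at 2.63 CPM per kilobase. The ratio of the higher to the lower member ran from 1.40 to 2.61. Of the genes with a promoter window, the 14 that hold ACTACANNTCCC had a median of 3.29 CPM per kilobase and the 14 without it 2.46, with ranges of 0.582 to 57.6 and 0.811 to 13.14 that overlap. The median log2 fold change was -0.17 with the pattern and -0.13 without it, and 13 of 14 genes were below 0 in each set.

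Few of the members' reads came from the strand opposite to the gene. Over all 31 members the opposite strand held 2407 reads against 105963 on the gene's own strand (2.27%). ZNF571 stood apart with 83.1%. The gene of the antisense RNA ZNF571-AS1 overlaps it but shares only 137 of its exon bases (2.21%), and ZNF571 also lies within the plus-strand gene ZNF540. The source of its opposite-strand reads was not tested. ZNF790 had 29.2%, ZNF565 19.8%, ZNF540 13.6% and ZNF529 10.3%. On the gene's own strand, 6 members share exon bases with another gene, among them ZNF607 with 12.5% of its exon bases, ZNF585B with 10.1% and ZNF540, which shares 260 exon bases with ZNF571-AS1. Reads in such bases are not counted for either gene, so these levels are uncertain.

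Relaxin-2 and untreated cells differed little at the members, and no member passed the test over all genes. Of the 31 members, 29 had a log2 fold change below 0, where 52.2% of the 16740 genes tested had one. At an adjusted p under 0.05 in edgeR 0 members were called, where 0% of all genes were. At an unadjusted p under 0.05, 1 member was lower and none was higher, where 10.8% of all genes were past that threshold and 4.52% were past it and lower. The groups did not overlap for 7 members, all with the relaxin-2 libraries below, where 10.5% of all genes had such groups. Since the cluster was chosen with this comparison known, nothing is read from these counts. The median log2 fold change of the members was -0.15, with a median standard error of 0.13, and that of all genes tested was -0.01. For 9 members the change was within 1 standard error of 0, and for 6 it was beyond 2.

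ZNF781 (ENSG00000196381, minus strand, chr19:37667751-37692322 on GRCh38) had the lowest fold change of the cluster. It measured 29.1, 28.1 and 27.0 CPM in the relaxin-2 libraries and 44.5, 40.1 and 34.6 CPM in the untreated ones. Every relaxin-2 library was below every untreated library, and the untreated libraries spread more widely. The means were 28.1 ± 1.03 CPM with relaxin-2 and 39.7 ± 4.95 CPM untreated (SD, n = 3 each), and the log2 fold change was -0.50 ± 0.11 (SE). Its annotated start lies 15 bases from that of ZFP30, a KRAB zinc finger gene on the same strand, and the genes share 341 exon bases, 9.43% of the exon bases of ZNF781. ZFP30, named after its values were seen because of this overlap, measured 50.1, 45.2 and 49.0 CPM with relaxin-2 and 60.9, 55.6 and 48.3 CPM untreated. Its groups overlapped, and its log2 fold change was -0.19 ± 0.10 (SE).

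The other members with the smallest p were ZNF529, ZNF540, ZNF571 and ZNF345. ZNF529, a gene of 9 finger motifs, measured 31.1, 29.3 and 28.4 CPM with relaxin-2 and 38.7, 33.5 and 32.3 CPM untreated. Its groups did not overlap, though the highest relaxin-2 library was close to the lowest untreated one, and the log2 fold change was -0.24 ± 0.10 (SE). ZNF345, a finger protein without a KRAB domain, measured 4.40, 3.83 and 3.05 CPM with relaxin-2 and 4.73, 4.96 and 4.79 CPM untreated. The untreated libraries were nearly equal and the relaxin-2 libraries spread below them, with a log2 fold change of -0.37 ± 0.17 (SE).

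ZNF540 and ZNF571 overlap on opposite strands. ZNF540 measured 2.39, 1.83 and 2.18 CPM with relaxin-2 and 3.24, 3.03 and 2.36 CPM untreated. Untreated library 4 fell just below relaxin-2 library 1, so the groups of ZNF540 overlapped, and the log2 fold change was -0.42 ± 0.20 (SE). ZNF571 measured 4.62, 3.48 and 4.68 CPM with relaxin-2 and 5.94, 5.70 and 4.90 CPM untreated. Its groups did not overlap, and the log2 fold change was -0.36 ± 0.17 (SE). Relaxin-2 library 2, the shallowest of the 6, was the lowest for both genes.

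ZNF585B, ZNF850 and ZNF30 also had groups that did not overlap. ZNF585B measured 23.5, 21.3 and 23.7 CPM with relaxin-2 and 28.7, 27.1 and 24.3 CPM untreated. ZNF850 measured 34.7, 29.6 and 32.8 CPM with relaxin-2 and 38.0, 34.9 and 36.9 CPM untreated. The gap between the groups was small for both, 23.7 to 24.3 CPM for ZNF585B and 34.7 to 34.9 CPM for ZNF850. ZNF30 measured 5.62, 6.19 and 5.95 CPM with relaxin-2 and 6.35, 7.20 and 7.55 CPM untreated. The log2 fold changes were -0.23 ± 0.11 (SE) for ZNF585B, -0.17 ± 0.10 for ZNF850 and -0.25 ± 0.14 for ZNF30.

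ZNF565 and ZNF570 were the members above 0. ZNF565, whose gene overlaps ZNF146 on the opposite strand, measured 3.23, 5.40 and 4.77 CPM with relaxin-2 and 4.10, 4.83 and 4.04 CPM untreated, a log2 fold change of 0.03 ± 0.21 (SE). ZNF570 measured 16.6, 16.9 and 16.1 CPM with relaxin-2 and 18.6, 15.6 and 14.5 CPM untreated, a log2 fold change of 0.02 ± 0.13 (SE). The groups overlapped in both genes and the changes were far within their standard errors. ZNF420, a KRAB protein known as a repressor of p53 activity, lay close to 0 as well, at -0.05 ± 0.13 (SE). The remaining members lay between -0.23 for ZNF527 and -0.02 for ZNF599, and all of them had overlapping groups.

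**Figure D3:**
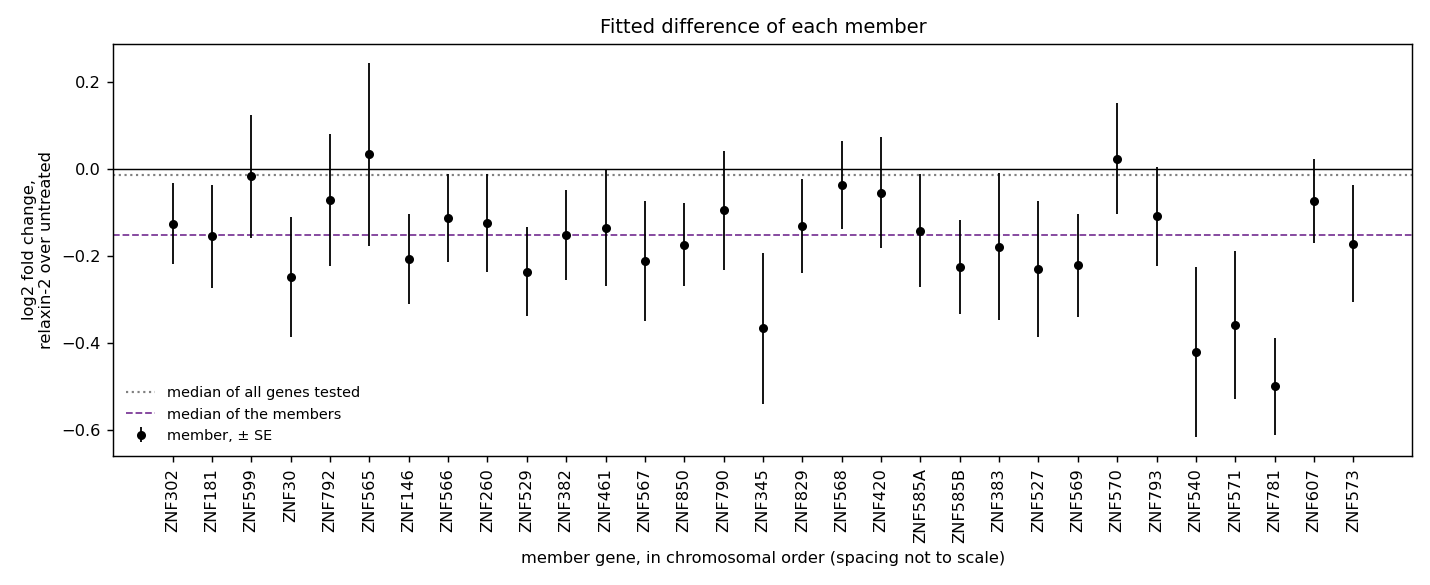
Log2 fold change of relaxin-2 over untreated cells (y axis) for each of the 31 members in chromosomal order (x axis); bars are standard errors, the dashed line is the members' median and the dotted line that of all genes tested. ZNF781 lies farthest from 0 at -0.50 ± 0.11, ZNF565 and ZNF570 lie just above 0, and the bars of 9 members reach 0.

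The summed CPM of the members was 919, 846 and 839 in the relaxin-2 libraries and 1080, 957 and 891 in the untreated ones. Untreated library 4 lay between relaxin-2 libraries 1 and 2, so the groups overlapped. The means were 868 ± 44.5 CPM with relaxin-2 and 976 ± 96.0 CPM untreated (SD, n = 3 each), a log2 ratio of -0.17, and -0.16 without ZNF146. The median member also varied from library to library within a group. Measured against its own mean over the 6 libraries, the median member deviated by 0.01, -0.11 and -0.13 (log2) in relaxin-2 libraries 1, 2 and 3, and by 0.20, 0.08 and -0.03 in untreated libraries 2, 3 and 4. Over all genes tested, the median gene deviated by 0.01, 0.003 and 0.0003 in relaxin-2 libraries 1, 2 and 3. In untreated libraries 2, 3 and 4 it deviated by -0.005, 0.01 and 0.02. TMM scaling keeps the typical gene near 0 in every library, so nothing about the members is read from these values. Untreated library 2 was the highest of the 6 for 24 of the 31 members, and relaxin-2 libraries 2 and 3 were the lowest for 12 and 15. Such counts were not made for all genes or for genes of like GC content.

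Other measures of the libraries varied alongside. Reads of RN7SL1 and RN7SL2, the RNA of the signal recognition particle, and of RN7SK, a regulator of transcript elongation, together made up 0.685%, 0.892% and 0.926% of gene reads in the relaxin-2 libraries and 0.263%, 0.676% and 0.691% in the untreated ones. Over the 6 libraries this share ran in exactly the opposite order to the members' summed CPM. The share of reads mapping to several places was 5.34%, 27.0% and 6.19% in the relaxin-2 libraries and 5.31%, 5.51% and 5.63% in the untreated ones. The share of reads outside annotated exons of the counted strand was 24.0%, 17.5% and 25.8% in the relaxin-2 libraries and 27.9%, 32.0% and 28.7% in the untreated ones, lower in every relaxin-2 library. Their part in the members' values was not tested.

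**Figure D4:**
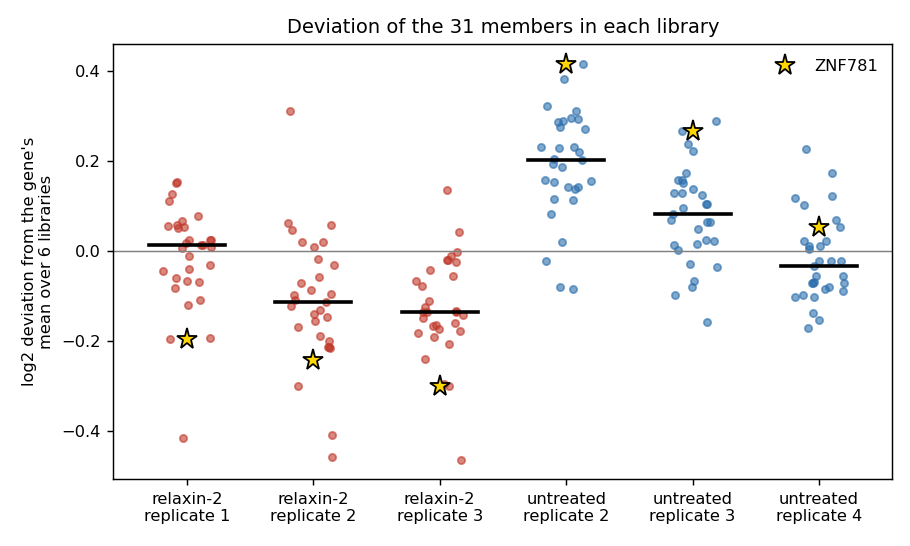
Log2 deviation of each member from its own mean over the 6 libraries (y axis), by library, with relaxin-2 libraries 1 to 3 left of untreated libraries 2 to 4; points are the 31 members, stars ZNF781 and thick lines the medians. The medians are 0.01, -0.11 and -0.13 with relaxin-2 and 0.20, 0.08 and -0.03 untreated.

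The fold change went along with the base composition of the transcripts over all genes, and the members are poor in G and C. Their transcripts had a median GC content of 43.9%, with 37.4% in ZNF260 and 51.03% in ZNF599 at the ends, where all genes tested had a median of 48.7%. Among the 7448 genes tested at a GC content of 47.5% or under, 85.5% had a log2 fold change below 0, with a median of -0.13. Of the members, 26 lay in that range, and all 26 were below 0. Among genes at 42.5% to 45% GC, where 12 members lie, the median was -0.12, and among genes above 60% GC, where no member lies, it was 0.53. When offsets removed each library's trend on GC content and transcript length, 21 of 31 members were below 0, their median was -0.05 and that of ZNF781 was -0.34 ± 0.07 (SE). The offsets were fitted on the same counts, and whether the trend arose in the cells or in the libraries was not tested.

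**Figure D5:**
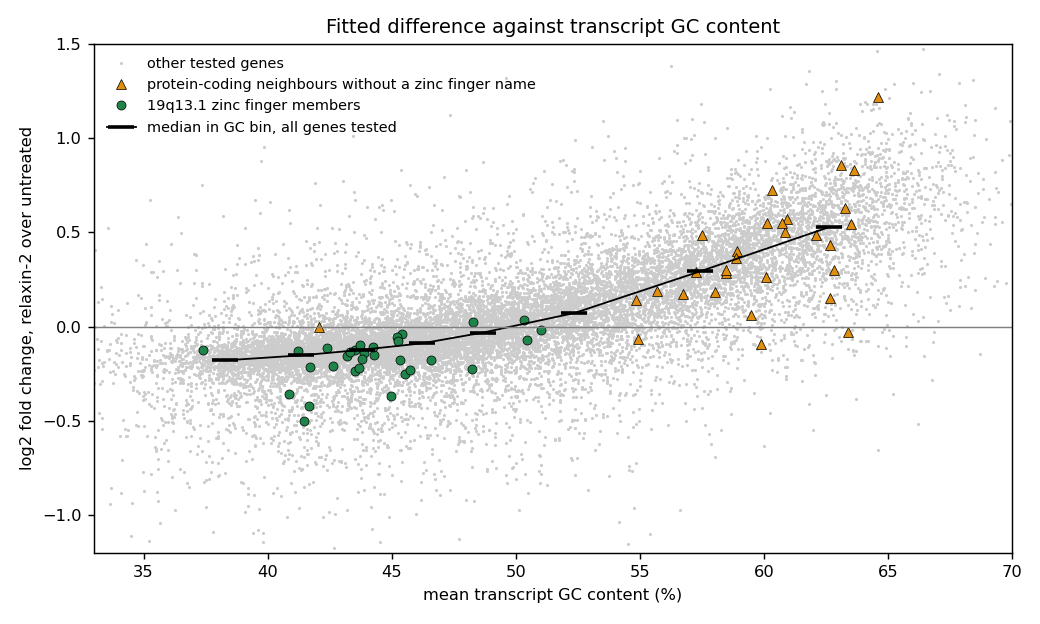
Log2 fold change of relaxin-2 over untreated cells (y axis) against mean GC content of a gene's transcripts (x axis, percent) for all genes tested, with the members as circles, other protein-coding genes between them as triangles and the medians of the GC ranges as thick lines; a few genes lie beyond the axes. The medians climb from -0.18 at 40% GC or under to 0.53 above 60%, and the members lie between 37.4% and 51.03%.

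Zinc finger neighbours and other neighbours of the members had different values. The other zinc finger genes in the interval, ZFP14, ZFP30, ZFP82 and ZNF875, were all expressed, with a median GC content of 44.6%, and their 4 log2 fold changes were all below 0 with a median of -0.16. Of the 61 other protein-coding genes between the outermost members, 28 were expressed, 10 were between 0.1 and 1 CPM and 23 were silent. Of the 30 of these that passed the filter, 4 were below 0 and 26 above, with a median of 0.33, and their median GC content was 60.1%. Whether these shares differ from the members' was not tested.

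Zinc finger clusters elsewhere on the chromosome were also mostly expressed. At 19p12, 33 of 37 ZNF genes were expressed, and 33 of the 36 tested were below 0 with a median log2 fold change of -0.22 and a median GC content of 41.5%. At 19q13.4, 90 of 98 ZNF genes were expressed, and 74 of the 92 tested were below 0 with a median of -0.14. The median GC content of the 19q13.4 genes tested was 48.1%. ZNF genes of other chromosomes had a median of -0.09 and a median GC content of 48.7%, with 154 of 239 tested genes below 0. Among all genes tested at 47.5% to 50% GC, the median log2 fold change was -0.03. The members' median of -0.15 lay between those of the 19p12 and the other-chromosome genes, and their 29 of 31 below 0 (93.5%) stood beside 91.7% at 19p12 and 64.4% on other chromosomes. No test of a difference between these sets was made.

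RNAs from genes that overlap or adjoin a member on the other strand went in both directions. ZNF566-AS1, named after its values were seen, measured 6.46, 7.23 and 6.45 CPM with relaxin-2 and 4.01, 4.65 and 5.77 CPM untreated, without overlap, and its log2 fold change was 0.48 ± 0.17 (SE). Its transcripts have a GC content of 57.7%. ZNF571-AS1, named for its overlap with ZNF571, measured 5.62, 5.58 and 4.86 CPM with relaxin-2 and 6.48, 5.97 and 5.82 CPM untreated. Its groups did not overlap either, with relaxin-2 below, and its log2 fold change was -0.19 ± 0.14 (SE). Others, also named after their values were seen, had overlapping groups. The log2 fold change was 0.15 ± 0.21 (SE) for ZNF529-AS1 and -0.28 ± 0.19 for ZNF790-AS1. It was -0.52 ± 0.40 for ZNF793-AS1 and -0.63 ± 0.46 for ZNF567-DT. None of these RNAs passed an adjusted p of 0.05.

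Cofactors of KRAB zinc finger proteins and genes related to them were followed in a list of 24 genes. The list is wider than the cofactors, with the DNA methylation genes UHRF1, DNMT1, DNMT3A and DNMT3B and the zinc finger gene ZFP57 among the 24. Of these, 23 passed the filter, 11 had a log2 fold change below 0 and 12 above, with a median of 0.02, and ZFP57, a KRAB protein of imprinted regions, had 0 reads. In edgeR 0 of the 23 passed an adjusted p of 0.05, and 3 had an unadjusted p under 0.05, all higher; 10.8% of all genes tested were past that threshold. TRIM28, the corepressor bound by the KRAB domain, measured 153, 195 and 186 CPM with relaxin-2 and 72.0, 141 and 158 CPM untreated. Its groups overlapped, with untreated library 2 far below the other libraries, and its log2 fold change was 0.53 ± 0.26 (SE) at a GC content of 59.5%. UHRF1, which guides maintenance of DNA methylation, measured 97.3, 121 and 114 CPM with relaxin-2 and 73.6, 82.9 and 92.3 CPM untreated, without overlap and with a log2 fold change of 0.42 ± 0.11 (SE) at a GC content of 58.1%. CHD3, a remodeller of the NuRD complex, had a log2 fold change of 0.28 ± 0.09 (SE) at a GC content of 54.8%. Among all genes tested at 55% to 60% GC, where TRIM28 and UHRF1 lie, the median log2 fold change was 0.29. Among those at 50% to 55% GC, where CHD3 lies, it was 0.07.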

How the data were processed

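The 3 relaxin-2 and 3 untreated libraries are of total RNA and keep the strand, per the labels' protocols. The authors deposited unnormalized read counts per gene from STAR on hg38, per the submitters' processing notes; the version of STAR and its annotation were not given in the sources used here. Counts of the reverse-strand column were used, and they equalled the authors' merged table at all 24635 shared gene IDs. STAR leaves out reads that map to several places, which lowers genes with near copies. Names and coordinates came from GENCODE 29 (57429 of 58037 IDs matched) and promoter windows from RefSeq (GRCh38.p14).

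Counts were filtered with filterByExpr, scaled by TMM and compared with edgeR 4.0.16's quasi-likelihood test, two-sided, with Benjamini-Hochberg adjustment and a threshold of 0.05 (R 4.3.3, limma 3.58.1); DESeq2 1.42.0 was an alternative. Python 3.11.15 with pandas 2.3.3, Biopython 1.88 and matplotlib 3.10.9 made the tables and figures. The test was checked on simulated counts. Deviations used log2(CPM + 0.1). Reads not assigned to a gene were left out; 6.73% to 17.4% were unmapped, 5.31% to 27.0% mapped to several places, 2.36% to 4.18% were ambiguous and 17.5% to 32.0% met no annotated exon. The median standard error of a member's log2 fold change was 0.13 with these libraries.

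Any member could be named. Given in every library were ZNF781, the 5 members with the highest mean CPM, the 5 with the smallest p in each direction (only 2 were higher) and those whose groups did not overlap. Of the list of cofactors and related genes, TRIM28 and the 2 with the smallest p were named with values. The members and lists were chosen with earlier results of these data known. The alternatives were other scalings and filters, unstranded counts, the merged table, leaving out libraries, a replicate block, and offsets for GC content and length (splines with 5 degrees of freedom).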

Additional observations from a re-analysis of the deposited data

How the results depend on the processing

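The members called numbered 0 under every alternative run, and the count of members below 0 stayed within 1.5 times of 29. Expressed members numbered 31 under every alternative run for them except CPM per kilobase of exon, which gave 27. The count of members below 0 was lowest with GC content and length offsets, at 21 of 31, and was 24 without both libraries numbered 2. Leaving out each library gave 27 to 31 members below 0, ZNF781 log2 fold changes of -0.59 to -0.41, medians of -0.19 to -0.10 and log2 ratios of the summed CPM of -0.23 to -0.09. With GC content and length offsets ZNF781 moved to -0.34, the members' median to -0.051 and the log2 ratio of the sum to -0.044. Members at an unadjusted p under 0.05 numbered 1, and 2 with no filter on low counts, 2 with unstranded counts and 2 with the replicate block; leaving out each library gave 1 to 7, with 7 without untreated replicate 4. Genes called over all genes numbered 0, and 120 with no filter, 3 without both libraries numbered 2, 1 with the replicate block, 97 with the offsets and the replicate block, and 0 to 3 when a library was left out; the cause was not tested. The labels do not say whether libraries of the same number belong together. Their deviations from the group mean correlated at -0.33 for number 2 and 0.12 for number 3. Combinations of unlike numbers ran from -0.39 to 0.47, and so few libraries cannot settle whether any were paired. Only numbers 2 and 3 occur in both groups, so every comparison with the replicate block rested on the libraries of those numbers. With that block ZNF781 stood at -0.61, the members' median at -0.23 and the log2 ratio of the sum at -0.27. The median standard error for a member was 0.13 (log2), so small changes were not detectable with these libraries.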
